A study of Rattus norvegicus with 74 samples.

Results

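The Cyp2c family was represented by 7 of the 31042 probe sets that were not array controls. They were all the probe sets whose gene symbol in the array's annotation starts with Cyp2c, each carried a single gene symbol, and they stand for Cyp2c7, Cyp2c6v1, Cyp2c11, Cyp2c12, Cyp2c13, Cyp2c22 and Cyp2c23. The RefSeq gene table (GRCr8) lists 11 protein-coding Cyp2c genes, all on chromosome 1 in the order Cyp2c11, Cyp2c24, Cyp2c55, Cyp2c66, Cyp2c6v1, Cyp2c7, Cyp2c7l1, Cyp2c12, Cyp2c13, Cyp2c22 and Cyp2c23. The 4 without a matching probe set (Cyp2c24, Cyp2c55, Cyp2c66 and Cyp2c7l1) were not analysed here. The Cyp2c13 probe set is of the type whose probes match several related transcripts, so its signal may include RNA of another family member.

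The study measured liver RNA of Wistar Han rats (Crl:WI (Han)) at postnatal day (PND) 22 on 74 Affymetrix arrays in 15 groups. Phenobarbital, the reference activator of the nuclear receptor CAR, was given at 0, 5 or 45 mg/kg. PCB126, a dioxin-like polychlorinated biphenyl that activates the aryl hydrocarbon receptor, was given at doses labelled 0, 10, 50 or 250 mg/kg, a unit that could not be checked. PBDE-47 (a tetrabrominated diphenyl ether congener) and DE-71 (a commercial mixture of brominated diphenyl ethers) were each given at 0.1, 15 or 50 mg/kg, beside a group at 0 mg/kg. Dams received them between gestation days 6 and 21, and the pups themselves between PND 12 and 21. Dosing was daily by oral gavage, and the protocol states exposure before and after birth for every sample without separate days for Phenobarbital and PCB126. There were 4 arrays of DE-71 50 mg/kg and 5 of every other group, and each agent had a control group (0 mg/kg) to which its doses were compared. Sex and litter are not given, so p-values rest on the spread over samples that may share a litter.

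Cyp2c proteins are membrane-bound P450 enzymes of the hepatocyte endoplasmic reticulum that hydroxylate drugs and steroids and epoxidise arachidonic acid. Several rat members are controlled by the pattern of growth hormone secretion and become sex-specific around puberty, with Cyp2c11 and Cyp2c13 typical of adult male liver and Cyp2c12 of adult female liver. Others respond to foreign chemicals through the nuclear receptors CAR and PXR, which bind DNA elements built from copies of a short core sequence.

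The stretch of 250 bases before the annotated start is shown for 2 members that rose with treatment, Cyp2c7 and Cyp2c11, and for 2 that did not, Cyp2c12 and Cyp2c23, so that the members can be compared where the core sequence was searched. Sequences are from RefSeq (GRCr8), 5′ to 3′ on the strand of the gene, and capitals mark AGGTCA or AGTTCA on either strand. The windows are chr1:247966144-247966393 on the plus strand for Cyp2c7, chr1:246174966-246175215 on the plus strand for Cyp2c11, chr1:248677035-248677284 on the minus strand for Cyp2c12 and chr1:252863068-252863317 on the minus strand for Cyp2c23.
Cyp2c7: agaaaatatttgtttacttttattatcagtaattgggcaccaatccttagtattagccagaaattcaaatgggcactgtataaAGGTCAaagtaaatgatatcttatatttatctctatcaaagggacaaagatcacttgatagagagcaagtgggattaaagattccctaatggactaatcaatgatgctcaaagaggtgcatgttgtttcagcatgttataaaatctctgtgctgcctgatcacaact
Cyp2c11: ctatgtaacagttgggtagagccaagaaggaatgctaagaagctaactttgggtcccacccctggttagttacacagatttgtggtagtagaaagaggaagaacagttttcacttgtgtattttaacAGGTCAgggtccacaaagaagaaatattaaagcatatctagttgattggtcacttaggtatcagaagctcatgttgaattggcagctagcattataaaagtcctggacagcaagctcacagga
Cyp2c12: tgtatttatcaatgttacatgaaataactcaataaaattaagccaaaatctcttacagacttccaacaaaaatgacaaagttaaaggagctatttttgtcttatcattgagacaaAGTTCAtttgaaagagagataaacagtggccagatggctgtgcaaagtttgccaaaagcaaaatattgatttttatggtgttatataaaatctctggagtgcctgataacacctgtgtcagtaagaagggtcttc
Cyp2c23: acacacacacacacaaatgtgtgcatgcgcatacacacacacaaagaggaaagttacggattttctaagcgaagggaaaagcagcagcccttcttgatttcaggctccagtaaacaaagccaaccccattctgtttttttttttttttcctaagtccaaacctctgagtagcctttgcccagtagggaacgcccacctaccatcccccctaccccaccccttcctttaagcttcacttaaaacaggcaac

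Both inducible members shown held AGGTCA in the forward direction, at bases 167 to 162 before the start of Cyp2c7 and at bases 123 to 118 before that of Cyp2c11. The Cyp2c12 window held AGTTCA at bases 135 to 130, and the Cyp2c23 window held neither. Of the members not shown, Cyp2c13 held AGTTCA at bases 124 to 119, and Cyp2c22, whose level did not pass the test at any dose, held AGGTCA on the reverse strand at bases 30 to 25. Cyp2c6v1 is not among the promoters. AGGTCA was found in 14.1% and AGTTCA in 12.2% of 33469 rat promoter windows of the same length, searched on both strands, and TTCNNNGAA, the palindrome bound by STAT5, in 7.67% of them and in none of the 6 Cyp2c windows. Thus Cyp2c7 and Cyp2c11, which rose, each held 1 copy of AGGTCA, and Cyp2c22, which did not, held 1 copy on the reverse strand. Whether the matches bear on the response was not tested, and sequence farther from the start was not searched. Aligned over the window, Cyp2c12 and Cyp2c13 shared 68% of bases, Cyp2c7 and Cyp2c12 shared 61.2%, and Cyp2c7 and Cyp2c11 shared 56.8%.

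Array medians lay between 4.82 and 5.04 log2 units, and the mean of 9 hepatocyte markers between 13.23 and 13.85, against 2.89 to 3.60 for 2 kidney markers and 3.70 to 4.36 for 5 lymphocyte markers. Of 656 pairs of arrays of the same agent, 4 were nearly identical, with a root mean square difference below 0.3 log2 units over 300 variable genes. Replicates 3 and 4 of PBDE-47 0 mg/kg and replicates 1 and 2 of DE-71 15 mg/kg were each averaged and counted as 1 sample, which left 72 samples. The other pairs joined different groups (replicate 3 of PBDE-47 15 mg/kg with replicate 3 of PBDE-47 50 mg/kg, and replicate 5 of DE-71 15 mg/kg with replicate 4 of DE-71 50 mg/kg), so results at these doses are given with and without them. Replicate 2 of PCB126 50 mg/kg had an Xist level of 9.80 log2 units and an Eif2s3y level of 2.45, whereas the other 73 arrays had 2.55 to 3.09 and 8.20 to 9.47. By Xist and the Y-linked Eif2s3y, that array has the pattern of a female and the other 73 that of males, although sex is not labelled.

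Across the 15 groups the members fell into ranges of very different width. Group means of Cyp2c7 ran from 7.27 to 13.49 log2 units, those of Cyp2c13 from 3.56 to 7.04 and those of Cyp2c11 from 5.67 to 8.46. Group means of Cyp2c6v1 ran from 13.16 to 14.14, of Cyp2c12 from 12.32 to 13.28, of Cyp2c23 from 11.95 to 12.58 and of Cyp2c22 from 12.64 to 13.15. Levels of different probe sets are not comparable with each other, because probes differ in how brightly they bind.

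**Figure D1:**
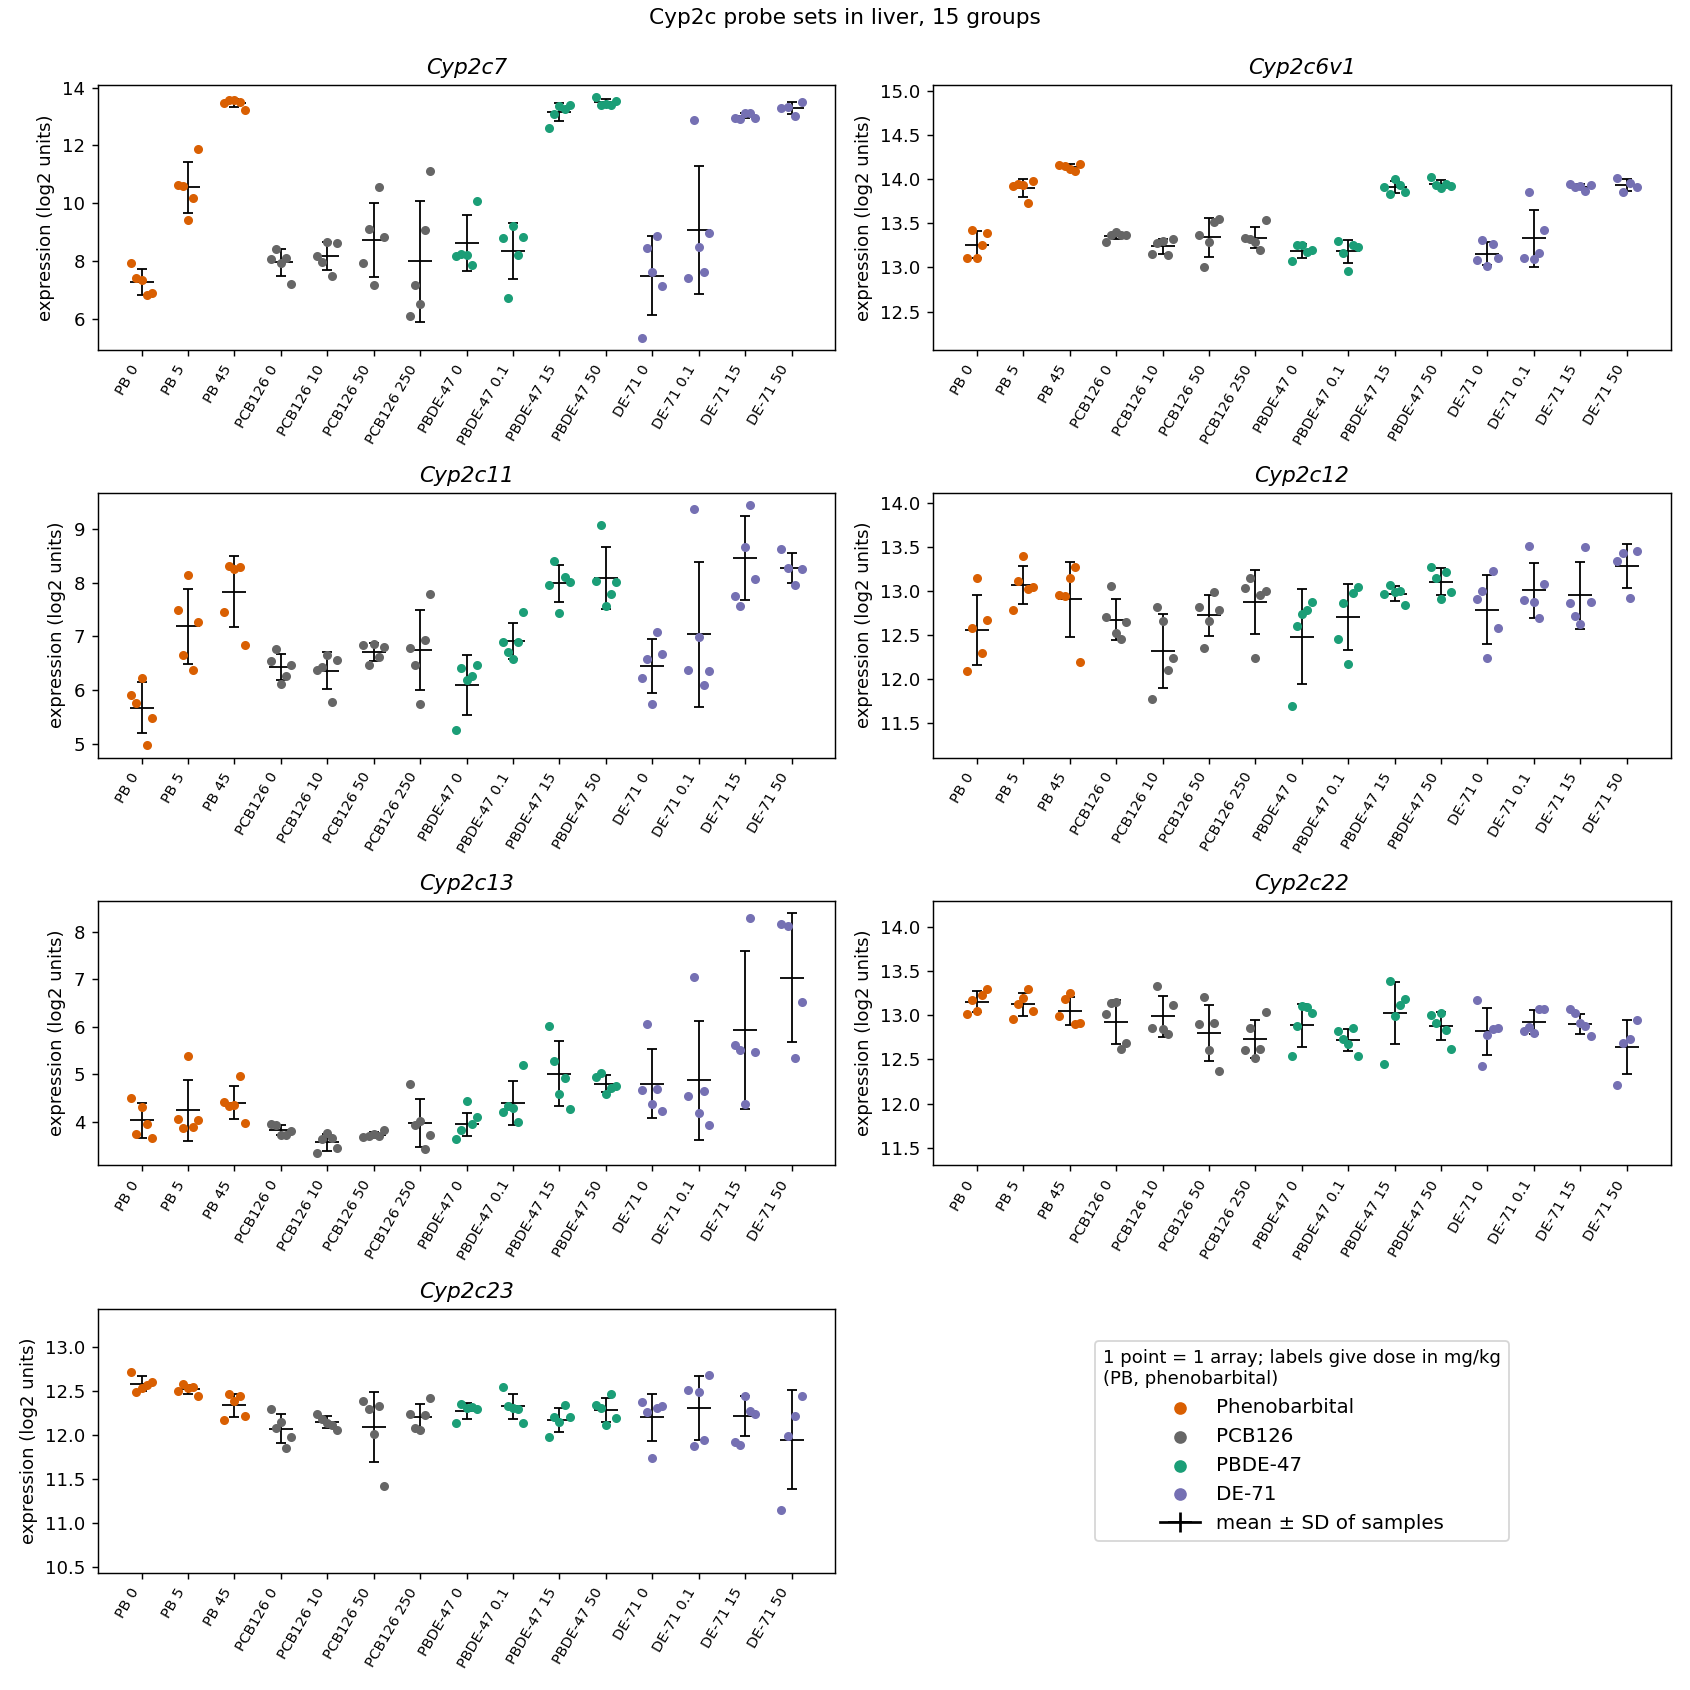
Expression of the 7 Cyp2c probe sets in liver (log2 units, vertical axis) in the 15 groups (horizontal axis, dose in mg/kg), with 1 point per array and bars for the mean and SD of the samples. Cyp2c7 reaches group means of 13.03 to 13.49 at the 2 highest doses of PBDE-47 and DE-71 and at Phenobarbital 45 mg/kg, while Cyp2c22 and Cyp2c23 keep nearly level means. Vertical axes differ between panels and span at least 3 log2 units.

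The largest change of any member was that of Cyp2c7, a retinoic acid and steroid hydroxylase, at Phenobarbital 45 mg/kg. Its values were 7.91, 7.41, 7.33, 6.82 and 6.87 at 0 mg/kg, 10.63, 10.59, 9.42, 10.18 and 11.89 at 5 mg/kg, and 13.46, 13.58, 13.58, 13.49 and 13.23 at 45 mg/kg. Every sample at 5 mg/kg lay above every control, every sample at 45 mg/kg lay above every sample at 5 mg/kg, and the spread was narrowest at the top dose. Against 0 mg/kg the log2 change was 3.27 at 5 mg/kg (95% confidence interval 1.97 to 4.57, limma, Benjamini-Hochberg adjusted p = 0.0152) and 6.20 at 45 mg/kg (4.90 to 7.50, limma adjusted p = 2.67e-10), that is 9.66-fold and 73.5-fold. The step from 5 to 45 mg/kg was 2.93 (1.63 to 4.23, limma adjusted p = 0.0146). At 5 mg/kg the adjusted p rose above 0.05, to between 0.0584 and 0.0745, when any of 4 arrays was left out (replicate 5 at 0 mg/kg, or replicate 1, 2 or 5 at 5 mg/kg), with log2 changes of 2.94 to 3.26. In these fits limma called 6 to 9 of all probe sets, against 20 with every sample. The test used 1 spread shared by all 15 groups, in which the SD of Cyp2c7 ran from 0.09 to 2.22. It was 0.45, 0.90 and 0.14 at Phenobarbital 0, 5 and 45 mg/kg. The dose step lost its call without replicate 3 at 5 mg/kg (2.65, limma adjusted p = 0.0803) or replicate 4 (2.84, limma adjusted p = 0.0508).

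Cyp2c6v1, the phenobarbital-responsive constitutive member, rose at both Phenobarbital doses by a small amount. It stood at 13.10, 13.43, 13.10, 13.26 and 13.40 at 0 mg/kg, 13.92, 13.94, 13.93, 13.72 and 13.98 at 5 mg/kg, and 14.16, 14.15, 14.11, 14.09 and 14.18 at 45 mg/kg. The groups did not overlap at either step. The log2 change was 0.64 at 5 mg/kg (0.47 to 0.82, limma adjusted p = 8.09e-06) and 0.88 at 45 mg/kg (0.71 to 1.06, limma adjusted p = 3.98e-11), that is 1.56-fold and 1.84-fold. Between 5 and 45 mg/kg the difference was 0.24 (0.06 to 0.41) and did not pass the test (limma adjusted p = 0.502), although it did when arrays were weighted by their quality (limma adjusted p = 0.0370). The highest value in the table was 14.94, and whether this nearness to the upper end of the scale compressed the change was not tested. Nor was it tested for the other bright probe sets, Cyp2c12, Cyp2c22 and Cyp2c23, or for Cyp2c7 at its upper doses.

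Cyp2c11, the male-specific steroid hydroxylase of adult liver, was low in these weanling controls and higher under Phenobarbital. Its values were 5.91, 5.76, 6.23, 4.97 and 5.47 at 0 mg/kg, 7.50, 6.66, 8.14, 6.37 and 7.27 at 5 mg/kg, and 7.46, 8.31, 8.26, 8.29 and 6.84 at 45 mg/kg. Both dosed groups lay above all controls and overlapped each other. It rose at 45 mg/kg by 2.16 (1.42 to 2.91, limma adjusted p = 0.000114). At 5 mg/kg the change was 1.52 (0.77 to 2.27) with a limma adjusted p of 0.131, which became 0.0376 with array weights.

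In all, 2 of 7 Cyp2c probe sets rose at Phenobarbital 5 mg/kg, where 0.058% of all probe sets tested rose, and 3 of 7 rose at 45 mg/kg, where 0.805% did. From 5 to 45 mg/kg 1 of 7 rose, against 0.232% of all. The remaining 4 members at 45 mg/kg had log2 changes of -0.25 (Cyp2c23), -0.10 (Cyp2c22), 0.34 (Cyp2c12) and 0.37 (Cyp2c13), each with an interval that holds 0. The median change of the 7 at 45 mg/kg was 0.37, against -0.01 over all probe sets.

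Under PBDE-47 the same 3 members passed the test, at 15 and at 50 mg/kg. Cyp2c7 was measured at 8.16, 8.22, 8.20, 7.85 and 10.09 at 0 mg/kg, 8.79, 6.72, 9.20, 8.21 and 8.82 at 0.1 mg/kg, 12.61, 13.09, 13.36, 13.26 and 13.39 at 15 mg/kg, and 13.67, 13.41, 13.42, 13.40 and 13.54 at 50 mg/kg. The 0 and 0.1 mg/kg groups overlapped, both upper doses lay above them without overlap, and every sample at 50 mg/kg lay above every sample at 15 mg/kg by a narrow margin. The log2 change was 4.52 at 15 mg/kg (3.14 to 5.90, limma adjusted p = 2.32e-05) and 4.87 at 50 mg/kg (3.49 to 6.24, limma adjusted p = 1.80e-06), that is 22.9-fold and 29.2-fold. The step from 15 to 50 mg/kg was 0.35 (-0.95 to 1.64, limma adjusted p = 0.99999). Replicate 5 of the controls, at 10.09, stood apart from the other controls, and without it the changes were 5.01 at 15 mg/kg and 5.35 at 50 mg/kg.

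Cyp2c6v1 followed with values of 13.08, 13.25, 13.26, 13.18 and 13.19 at 0 mg/kg, 13.91, 13.83, 14.00, 13.93 and 13.86 at 15 mg/kg, and 14.03, 13.93, 13.90, 13.94 and 13.92 at 50 mg/kg. All dosed samples lay above all controls, and the 2 dosed groups overlapped. It rose by 0.72 (0.54 to 0.91, limma adjusted p = 2.98e-07) and 0.76 (0.58 to 0.95, limma adjusted p = 3.89e-08).

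Cyp2c11 was 5.26, 6.42, 6.19, 6.27 and 6.46 in the PBDE-47 controls, 6.90, 6.71, 6.58, 6.90 and 7.45 at 0.1 mg/kg, 7.97, 8.40, 7.45, 8.12 and 8.02 at 15 mg/kg, and 8.03, 9.07, 7.57, 7.79 and 8.01 at 50 mg/kg. The 0.1 mg/kg group lay above all controls by a narrow margin (lowest 6.58, highest control 6.46), and the 15 and 50 mg/kg groups overlapped. It rose by 1.90 at 15 mg/kg (1.11 to 2.69, limma adjusted p = 0.00657) and by 2.0 at 50 mg/kg (1.21 to 2.80, limma adjusted p = 0.000837). Without replicate 1 of the controls, the lowest of them, the change at 15 mg/kg was 1.62 and its limma adjusted p 0.0842. At 0.1 mg/kg the change of 0.82 (0.03 to 1.61) had a limma adjusted p of 0.9999 and an unadjusted p of 0.0431.

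Thus 3 of 7 members rose at PBDE-47 15 mg/kg, where 0.358% of all probe sets rose, and 3 of 7 at 50 mg/kg, where 1.23% did. At 0.1 mg/kg limma called 0 of 7, as it called 0% of all probe sets, and Cyp2c11 was the 1 member with an unadjusted p below 0.05, as were 1170 of all probe sets. No member passed the test between 15 and 50 mg/kg, where 0% of all did. Without the near-identical arrays that join the PBDE-47 dose groups, Cyp2c7 changed by 4.46 at 15 mg/kg and 4.88 at 50 mg/kg, and all 3 members kept their calls at both doses.

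DE-71 raised the same 3 members at 15 and 50 mg/kg, and Cyp2c13 also rose at its top dose. Cyp2c7 was 5.34, 8.45, 7.63, 8.85 and 7.13 at 0 mg/kg, 7.39, 12.88, 8.49, 7.61 and 8.96 at 0.1 mg/kg, 12.96, 12.92, 13.12, 13.10 and 12.96 at 15 mg/kg, and 13.28, 13.32, 13.01 and 13.52 at 50 mg/kg. The upper doses were tightly grouped above all controls, whereas the 0.1 mg/kg group overlapped the controls except for replicate 2, which nearly reached the 15 mg/kg group. The log2 change was 5.55 at 15 mg/kg (4.17 to 6.93, limma adjusted p = 8.62e-08) and 5.80 at 50 mg/kg (4.43 to 7.18, limma adjusted p = 1.34e-08), that is 46.8-fold and 55.8-fold. The step from 15 to 50 mg/kg was 0.25 (-1.20 to 1.70, limma adjusted p = 0.951).

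Cyp2c6v1 was 13.08, 13.31, 13.01, 13.27 and 13.11 at DE-71 0 mg/kg, 13.95, 13.91, 13.92, 13.87 and 13.93 at 15 mg/kg, and 14.02, 13.86, 13.96 and 13.91 at 50 mg/kg. Dosed samples lay above all controls. It rose by 0.76 (0.57 to 0.94, limma adjusted p = 7.61e-08) and 0.78 (0.59 to 0.96, limma adjusted p = 1.38e-08).

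Cyp2c11 was 6.22, 6.57, 5.73, 7.08 and 6.67 at DE-71 0 mg/kg, 7.75, 7.57, 8.67, 9.45 and 8.06 at 15 mg/kg, and 8.62, 8.27, 7.96 and 8.26 at 50 mg/kg. Again no dosed sample at these doses fell within the control range. It rose by 2.01 (1.22 to 2.80, limma adjusted p = 0.00190) and 1.82 (1.03 to 2.62, limma adjusted p = 0.00191). With the spread estimated from the DE-71 arrays alone, the limma adjusted p was 0.233 at 15 mg/kg and 0.102 at 50 mg/kg.

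Cyp2c13, like Cyp2c11 a male-specific steroid hydroxylase of adult liver, was near the low end of the scale in most groups. Its values were 4.66, 6.06, 4.38, 4.68 and 4.23 at DE-71 0 mg/kg, 5.62, 5.52, 4.37, 8.29 and 5.47 at 15 mg/kg, and 8.17, 8.12, 5.33 and 6.53 at 50 mg/kg. Samples at 50 mg/kg were high but uneven, and the lowest of them lay below the highest control. It rose by 2.24 at 50 mg/kg (1.31 to 3.17, limma adjusted p = 0.00107), while the change of 1.12 at 15 mg/kg (0.19 to 2.05) had a limma adjusted p of 0.476. With the DE-71 arrays alone the 50 mg/kg change had a limma adjusted p of 0.176. Under PBDE-47 the changes of Cyp2c13 were 1.07 at 15 mg/kg (0.15 to 2.0, limma adjusted p = 0.435) and 0.86 at 50 mg/kg (-0.07 to 1.79, limma adjusted p = 0.485).

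For DE-71, 3 of 7 members rose at 15 mg/kg, where 0.483% of all probe sets rose, and 4 of 7 at 50 mg/kg, where 2.69% did. From 15 to 50 mg/kg 0 of 7 passed the test, against 0.0773% of all, and Cyp2c13 alone had an unadjusted p below 0.05 (0.0263), as did 3282 of all probe sets. Without the near-identical arrays that join these groups, Cyp2c7 changed by 5.57 at 15 mg/kg and 5.89 at 50 mg/kg and Cyp2c13 by 2.80 at 50 mg/kg, and every call of a member at these doses was kept.

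**Figure D2:**
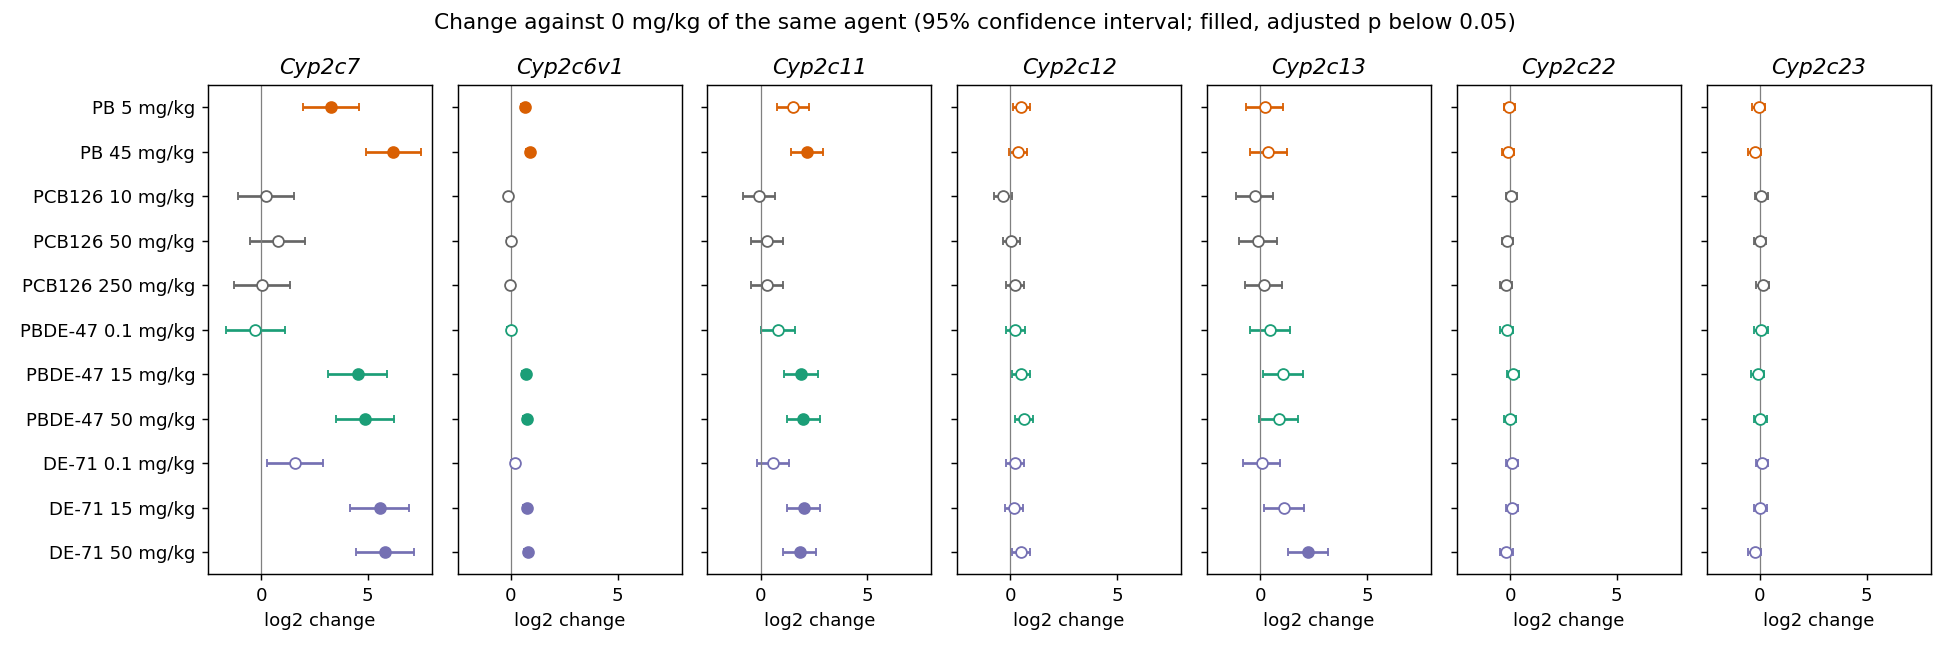
Log2 change of each Cyp2c probe set (columns, horizontal axis) for each dose relative to the agent's own control (rows), with the 95% confidence interval. Filled points passed the test, and they are found for Cyp2c7 and Cyp2c6v1 at both Phenobarbital doses and at 15 and 50 mg/kg of PBDE-47 and DE-71, for Cyp2c11 at the same doses except Phenobarbital 5 mg/kg, and for Cyp2c13 at DE-71 50 mg/kg.

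At DE-71 0.1 mg/kg the changes of Cyp2c7, Cyp2c6v1, Cyp2c11 and Cyp2c13 rested largely on 1 array, replicate 2, whose values resembled those of the higher doses and whose label could not be checked. Limma called 0 of 7 there, as it called 0% of all probe sets, and Cyp2c7 was the 1 member with an unadjusted p below 0.05, as were 1929 of all. That array had 12.88 for Cyp2c7 (others 7.39 to 8.96), 13.86 for Cyp2c6v1 (others 13.09 to 13.42), 9.38 for Cyp2c11 (others 6.10 to 6.99) and 7.05 for Cyp2c13 (others 3.94 to 4.66). In the same array 11 of 17 CAR and PXR target genes outside the family were above all other arrays of the group. Among them was the carboxylesterase Ces2c at 10.42 (others at most 8.80). Cyp1a1, the index gene of the aryl hydrocarbon receptor, stood at 12.10 (others at most 9.96). The mean of the 17 genes was 10.57 there, against 9.94 to 10.06 in the others. Such counts reached 10 of 17 elsewhere (replicate 3 of PBDE-47 15 mg/kg), and the share over all probe sets was not counted. With replicate 2 of DE-71 0.1 mg/kg the change of Cyp2c7 was 1.59 (0.29 to 2.88, limma adjusted p = 0.717) and without it 0.63 (limma adjusted p = 0.908). Likewise the change of Cyp2c11 went from 0.58 to -0.0011, that of Cyp2c6v1 from 0.17 to 0.04 and that of Cyp2c13 from 0.07 to -0.48. The changes of Cyp2c12 (0.22 with the array and 0.09 without), Cyp2c22 (0.11 and 0.12) and Cyp2c23 (0.10 and 0.21) were small either way.

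PCB126 gave no call for any Cyp2c member. Cyp2c7 was 8.06, 8.41, 7.93, 8.11 and 7.19 at 0 mg/kg, 8.17, 7.97, 8.65, 7.47 and 8.61 at 10 mg/kg, 7.93, 9.09, 7.15, 10.55 and 8.83 at 50 mg/kg, and 6.08, 7.15, 6.51, 9.06 and 11.10 at 250 mg/kg. The means stayed close, and the 250 mg/kg group held both lower and higher samples than any control. Its SD was 2.08 at 250 mg/kg and 0.45 at 0 mg/kg, a difference in spread that was not tested. The log2 changes were 0.23 (-1.06 to 1.53), 0.77 (-0.53 to 2.07) and 0.04 (-1.26 to 1.34) at 10, 50 and 250 mg/kg, which leaves room for a change of up to 4.19-fold at 50 mg/kg. Without replicate 2 of the 50 mg/kg group, the array with high Xist, that change was 0.67. The intervals rest on 1 spread shared by all 15 groups and do not reflect the wider SD at 250 mg/kg.

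The more evenly expressed Cyp2c6v1 gave narrower bounds under PCB126, with changes of -0.12 (-0.30 to 0.05), -0.02 (-0.19 to 0.16) and -0.02 (-0.20 to 0.15). Cyp2c11 changed by -0.07, 0.29 and 0.31, with intervals between -0.82 and 1.06. Limma called 0 of 7 members at 10 mg/kg (0% of all probe sets), 0 of 7 at 50 mg/kg (0%), 0 of 7 at 250 mg/kg (0.0322%) and 0 of 7 between 50 and 250 mg/kg (0.0258%). At an unadjusted p below 0.05 the member counts were also 0 in these comparisons, while 1024, 1736, 1812 and 1580 of all probe sets were below it. In the same livers Cyp1a2, a hepatic P450 under control of the aryl hydrocarbon receptor, rose by 0.91 at 250 mg/kg (SE 0.16, limma adjusted p = 0.00161).

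PBDE-47, a single congener, and the mixture DE-71 were compared at matched doses by the difference of their responses, for 7 probe sets at each of 3 doses. None of the differences passed the test: limma called 0 of 7 at 0.1 mg/kg (0% of all probe sets), 0 of 7 at 15 mg/kg (0.0129%) and 0 of 7 at 50 mg/kg (0.0387%). For Cyp2c7 the DE-71 response was larger by 1.86 at 0.1 mg/kg (-0.03 to 3.75), by 1.03 at 15 mg/kg (-0.92 to 2.98) and by 0.94 at 50 mg/kg (-1.01 to 2.88). The first of these was 0.91 without replicate 2 of DE-71 0.1 mg/kg, and the others were 0.54 and 0.45 without replicate 5 of PBDE-47 0 mg/kg. The dosed means at 15 and 50 mg/kg were no higher under DE-71 (13.03 and 13.28) than under PBDE-47 (13.14 and 13.49). The control mean was lower for DE-71 (7.48) than for PBDE-47 (8.62), so the larger DE-71 responses at these doses go with the controls. Levels were not tested between agents. The intervals of the differences are wide and do not show that the agents acted alike on this gene.

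For Cyp2c6v1 the differences between the agents had narrow intervals, 0.03 (-0.23 to 0.29) at 15 mg/kg and 0.02 (-0.24 to 0.28) at 50 mg/kg. Cyp2c11 differed by 0.11 (-1.01 to 1.23) and -0.18 (-1.30 to 0.94). The Cyp2c13 response at 50 mg/kg was larger under DE-71 by 1.37 (0.06 to 2.69, limma adjusted p = 0.522), the 1 difference among the members with an unadjusted p below 0.05 at that dose, as had 2858 of all probe sets. At 0.1 and 15 mg/kg that count was 0 of 7, against 1642 and 1475 of all probe sets.

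Cyp2c22 and Cyp2c23, both bright on the array, passed the test at no dose. Cyp2c22 lay between 12.21 and 13.39 over the 74 arrays, and its 11 changes against control ran from -0.19 to 0.14. Their intervals lay between -0.47 and 0.43, so that none reached below 0.722 or above 1.35 times the control signal. Cyp2c23, an arachidonic acid epoxygenase of kidney and liver, lay between 11.16 and 12.71, with changes of -0.25 to 0.13 and intervals between -0.56 and 0.42. Its samples at Phenobarbital 45 mg/kg (12.17 to 12.47) nevertheless all lay below its controls (12.49 to 12.71), with a change of -0.25 (-0.54 to 0.05, limma adjusted p = 0.611). Neither gene had an unadjusted p below 0.05 in any of the 11 comparisons.

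Cyp2c12, the female-specific steroid hydroxylase of adult liver, was less clear-cut. Its lowest, median and highest arrays were 11.70, 12.89 and 13.51, already high in controls, whose group means lay between 12.48 and 12.79. All control arrays had the low Xist and high Eif2s3y of the male pattern. The changes were 0.51 at Phenobarbital 5 mg/kg (0.10 to 0.92, limma adjusted p = 0.791), 0.49 at PBDE-47 15 mg/kg (0.05 to 0.92, limma adjusted p = 0.459), 0.62 at PBDE-47 50 mg/kg (0.19 to 1.06, limma adjusted p = 0.142) and 0.49 at DE-71 50 mg/kg (0.06 to 0.93, limma adjusted p = 0.189). At PBDE-47 50 mg/kg every sample lay above every control sample by a narrow margin (lowest 12.91, highest control 12.88). None passed the test over all probe sets, and the interval at PBDE-47 50 mg/kg leaves room for a change of up to 2.08-fold. Without replicate 5 of the PBDE-47 controls, the array set apart for Cyp2c7, that change was 0.76 (limma adjusted p = 0.0768). It was 0.67 without the near-identical arrays of different groups (limma adjusted p = 0.155).

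Set side by side at Phenobarbital 45 mg/kg, the interval of Cyp2c7 (4.90 to 7.50) lay above that of Cyp2c11 (1.42 to 2.91), which lay above that of Cyp2c6v1 (0.71 to 1.06), and the last lay above those of Cyp2c22 (-0.38 to 0.17) and Cyp2c23 (-0.54 to 0.05). The intervals of Cyp2c12 (-0.07 to 0.75) and Cyp2c13 (-0.50 to 1.25) overlapped that of Cyp2c6v1. At DE-71 50 mg/kg Cyp2c7 (4.43 to 7.18) again lay above Cyp2c11 (1.03 to 2.62) and Cyp2c6v1 (0.59 to 0.96), whose intervals were close. Differences between probe sets were not tested. In the RefSeq order along chromosome 1, Cyp2c11, Cyp2c6v1 and Cyp2c7, which rose under Phenobarbital, PBDE-47 and DE-71, came before Cyp2c12, Cyp2c13, Cyp2c22 and Cyp2c23, of which Cyp2c13 alone was called, at DE-71 50 mg/kg.

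**Figure D3:**
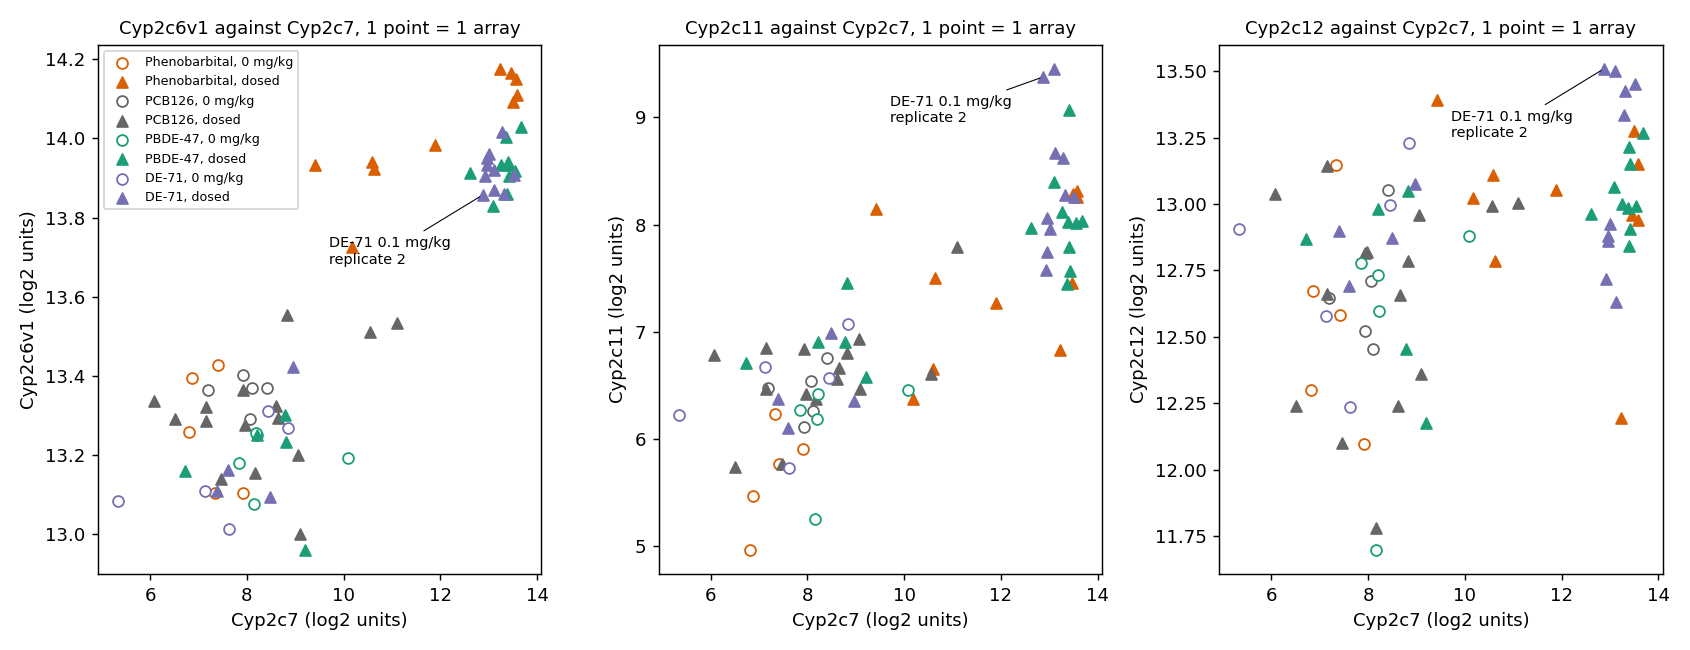
Cyp2c6v1, Cyp2c11 and Cyp2c12 (vertical axes) against Cyp2c7 (horizontal axis) in log2 units, with 1 point per array, open circles for 0 mg/kg and triangles for dosed rats. Cyp2c6v1 is at most 13.55 in the arrays with Cyp2c7 at or below 9.20, and replicate 2 of DE-71 0.1 mg/kg, with Cyp2c7 at 12.88, lies among the arrays of the higher doses. Cyp2c12 overlaps widely between arrays of low and of high Cyp2c7, and its lowest array, at 11.70, is among those of low Cyp2c7.

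Genes outside the family were ranked by how alike their pattern over the 11 dose comparisons was to that of Cyp2c7. Pearson's r over the 11 log2 changes, given as a description because doses of an agent share their controls, was searched among 1684 probe sets with a mean of at least 6 and a change of at least 0.5. The 6 highest were Cyp3a23-3a1 (0.986), a steroid- and drug-metabolising P450, Ugt2b1 (0.986), a glucuronosyltransferase, Retreg1 (0.976), a receptor for endoplasmic reticulum autophagy, Cndp2 (0.973), a cytosolic dipeptidase, Sgpl1 (0.971), the sphingosine phosphate lyase, and Abcc2 (0.967), the bile canalicular export pump. For Cyp2c6v1 they were Ugt2b1 (0.989), Ugt2b10 (0.980), Cyp4a8 (0.965), Ugt2b35 (0.963), Ces2c (0.961) and Cyp3a23-3a1 (0.958). Among the members, r with Cyp2c7 was 0.975 for Cyp2c6v1, 0.936 for Cyp2c11, 0.698 for Cyp2c13, 0.619 for Cyp2c12, 0.197 for Cyp2c22 and -0.774 for Cyp2c23, whose changes were small. The sizes differed widely: at Phenobarbital 45 mg/kg Cyp2c7 changed by 6.20, Ces2c by 3.81, Retreg1 by 2.33, Ugt2b1 by 1.38 and Cyp3a23-3a1 by 1.01.

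**Figure D4:**
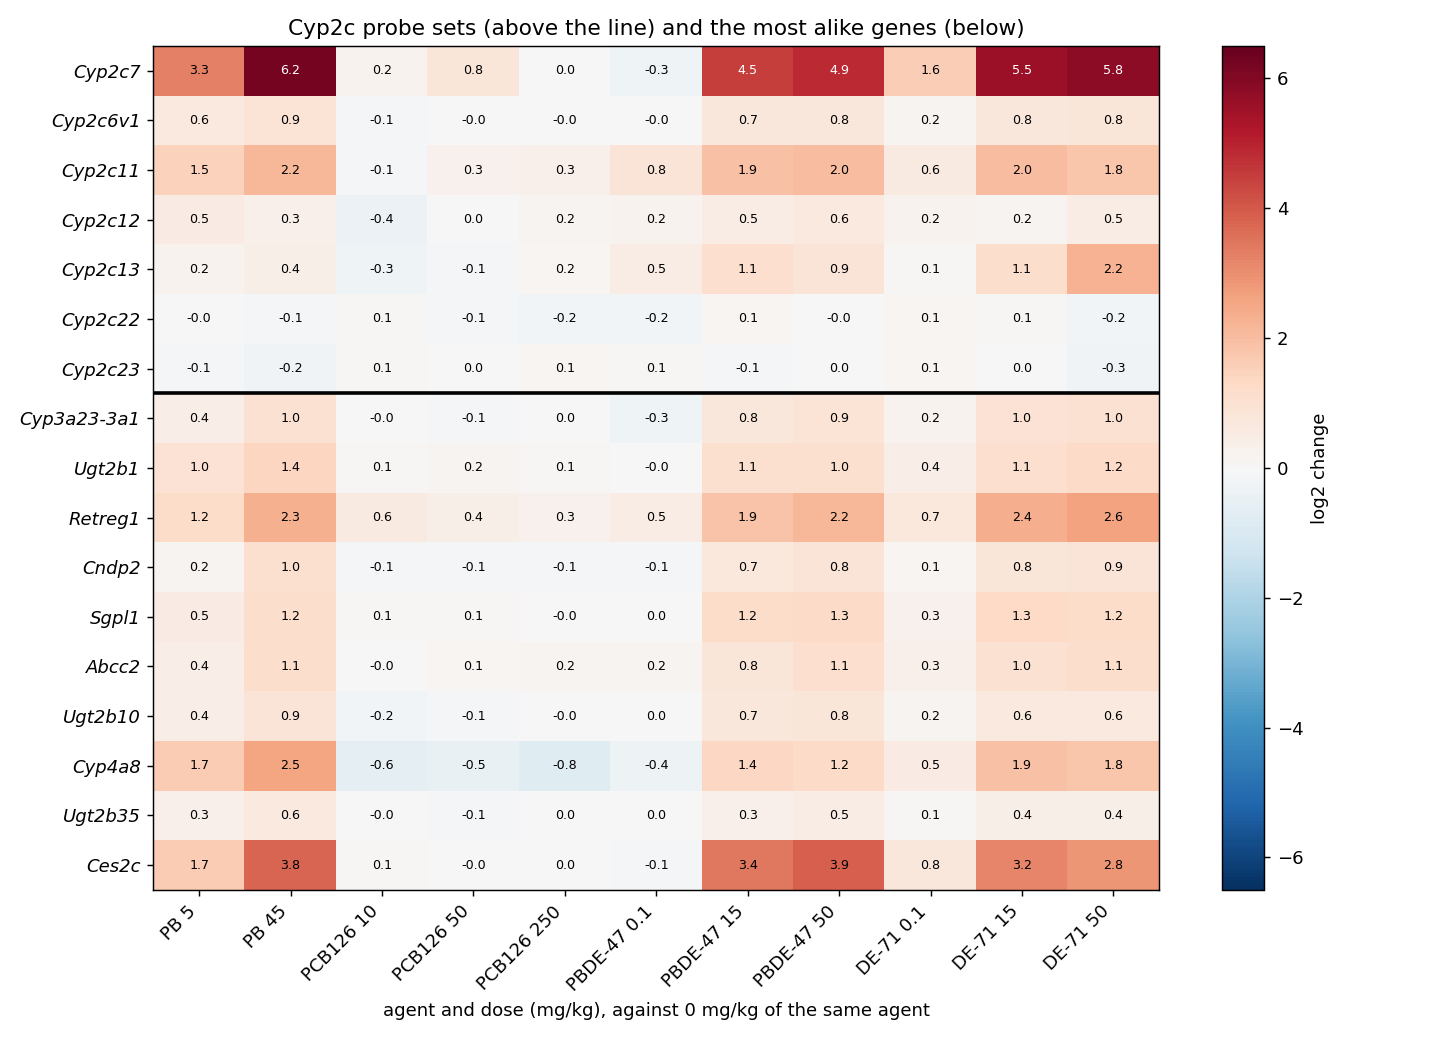
Log2 changes relative to each agent's own control (columns, colour and printed value) for the 7 Cyp2c probe sets, above the line, and for the genes whose changes are most like those of Cyp2c7 or Cyp2c6v1, below it. The like genes are red in the Phenobarbital columns and at 15 and 50 mg/kg of PBDE-47 and DE-71, as are Cyp2c7 and Cyp2c11, with Cyp2c7 the deepest at 6.20.

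Of 17 measured CAR and PXR targets outside the family, 13 rose at Phenobarbital 45 mg/kg, 13 at PBDE-47 50 mg/kg, 12 at DE-71 50 mg/kg and 0 at PCB126 250 mg/kg, and none fell. The median changes were 1.26, 1.02, 1.13 and 0.06, against -0.01, -0.01, 0.005 and -0.02 over all probe sets. Of all probe sets 0.805%, 1.23% and 2.69% rose at the first 3 of these doses, and 0.0322% were called in either direction at PCB126 250 mg/kg. At the lower doses 2 rose at Phenobarbital 5 mg/kg (0.058% of all probe sets), 9 at PBDE-47 15 mg/kg (0.358%) and 11 at DE-71 15 mg/kg (0.483%), with median changes of 0.57, 0.93 and 0.99. Ces2c rose by 3.81 at Phenobarbital 45 mg/kg (SE 0.24), by 3.86 at PBDE-47 50 mg/kg (SE 0.25) and by 2.85 at DE-71 50 mg/kg (SE 0.25).

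P450 enzymes draw electrons from cytochrome P450 reductase (Por) and need heme. Of 14 measured genes of electron supply and heme, 3 rose at Phenobarbital 45 mg/kg (0.805% of all probe sets), 4 at PBDE-47 50 mg/kg (1.23%) and 7 at DE-71 50 mg/kg (2.69%), and none fell, with median changes of 0.20, 0.20 and 0.42. Por, Cyb5a (the electron carrier cytochrome b5) and Pgrmc1 (a heme-binding partner of P450s) were among the called genes at all 3 of these doses. Por rose by 1.08 at Phenobarbital 45 mg/kg (SE 0.21), by 0.95 at PBDE-47 50 mg/kg (SE 0.22) and by 1.34 at DE-71 50 mg/kg (SE 0.22). Alas1, the first enzyme of heme synthesis, rose by 1.49 at PBDE-47 50 mg/kg (SE 0.24) and by 1.05 at DE-71 50 mg/kg (SE 0.24). None of the 14 was called at PCB126 250 mg/kg, where 0.0322% of all probe sets were.

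Regulators of the family were also examined in their own transcripts. Of 26 measured nuclear receptors and liver transcription factors, 0 were called by limma at Phenobarbital 45 mg/kg and at PBDE-47 50 mg/kg. Of all probe sets, 0.805% rose and 0.583% fell at the first of these doses, and 1.23% rose and 0.792% fell at the second. For so few genes a count of 0 lies near these shares. At DE-71 50 mg/kg, where 2.69% of all probe sets rose and 3% fell, 4 were called: the glucocorticoid receptor Nr3c1 (-0.44), Foxa3 (-0.90) and the thyroid hormone receptor Thrb (-0.39) fell, and the clock-controlled factor Dbp rose (0.90). Of 12 genes of growth hormone and STAT5 signalling, 1 fell at Phenobarbital 45 mg/kg, where 0.583% of all probe sets did (Igfals, which encodes a binding protein of the insulin-like growth factor complex, -0.93, SE 0.24) and none was called at PBDE-47 50 mg/kg or DE-71 50 mg/kg.

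Other sex-biased genes of adult rat liver bear on Cyp2c11, Cyp2c12 and Cyp2c13, which belong to that class. Of 13 measured outside the family, 1 rose at Phenobarbital 45 mg/kg (Cyp3a2, 0.29), where 0.805% of all probe sets rose, and 4 rose at PBDE-47 50 mg/kg (Sult1e1, Hao2, Ust5r and Cyp3a2), where 1.23% did. Cyp3a2 is also counted among the CAR and PXR targets above. At DE-71 50 mg/kg, where 2.69% rose and 3% fell, 4 rose (Sult1e1, Sult2a2, Hao2 and A1bg) while Cyp17a1 fell (-2.04, SE 0.28). The oestrogen sulfotransferase Sult1e1 was higher by 3.27 at PBDE-47 50 mg/kg (SE 0.63) and by 5.50 at DE-71 50 mg/kg (SE 0.63), and the hydroxysteroid sulfotransferase Sult2a2 by 3.68 at DE-71 50 mg/kg (SE 0.68). The called genes are of both kinds, those typical of male liver such as Cyp3a2 and those typical of female liver such as Sult2a2 and A1bg. Median changes of the 13 were 0.09, 0.24 and 0.16.

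Of 13 measured arachidonate P450s and epoxide hydrolases, 2 rose at Phenobarbital 45 mg/kg (Cyp4a8 and Ephx1), against 0.805% of all probe sets. At PBDE-47 50 mg/kg 1 rose (Ephx1, against 1.23% of all) and 1 fell (Cyp4f6, against 0.792%). At DE-71 50 mg/kg 2 rose (Cyp4a8 and Ephx1, against 2.69%) and 1 fell (Cyp4f1, against 3%). The microsomal epoxide hydrolase Ephx1, also counted among the CAR and PXR targets above, was higher by 1.36, 1.52 and 1.74 (SE 0.26, 0.28 and 0.28).

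Of 9 measured pericentral genes, expressed in the hepatocytes around the central vein where many P450s are found, 1 fell at Phenobarbital 45 mg/kg and at PBDE-47 50 mg/kg, Glul in both (-0.66 and -0.82). At DE-71 50 mg/kg Cyp1a2 rose (1.31), where 2.69% of all probe sets rose, and Cyp2e1 and Oat fell (-0.46 and -1.22). Of 10 periportal genes 1 fell at Phenobarbital 45 mg/kg (Hal), 3 at PBDE-47 50 mg/kg (Hal, Ass1 and Hsd17b13) and 5 at DE-71 50 mg/kg (Hal, Ass1, Hsd17b13, Gls2 and Cps1), and none rose. For both lists, the shares of all probe sets that fell at these doses were 0.583%, 0.792% and 3%. Genes named from these lists beyond the first 3 by p were added after their values were seen.

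Cell type markers were read against the same shares of all probe sets that fell, 0.583%, 0.792% and 3%. Limma called 0 of 9 hepatocyte markers at Phenobarbital 45 mg/kg and PBDE-47 50 mg/kg, and 2 of 9 fell at DE-71 50 mg/kg. Cps1, which fell there, is also counted among the periportal genes. Kupffer cell and macrophage markers fell in 5 of 7 cases at PBDE-47 50 mg/kg, where their mean was 7.61 to 8.12 log2 units against 8.30 to 8.76 in the controls, and in 0 of 7 at DE-71 50 mg/kg and Phenobarbital 45 mg/kg. Epcam, 1 of 4 cholangiocyte markers, rose in all 3 of these groups. Of all probe sets 0.805% rose at Phenobarbital 45 mg/kg, 1.23% at PBDE-47 50 mg/kg and 2.69% at DE-71 50 mg/kg. At DE-71 50 mg/kg 2 of 7 stellate cell and 1 of 5 endothelial markers fell. Lymphocyte, erythroid, kidney and gut markers gave 0 calls at these doses. In whole liver a smaller number of cells of a type and less RNA per cell cannot be told apart, and the part of these shifts in the Cyp2c values was not tested.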

How the data were processed

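The authors deposited log2 values for each probe set of Affymetrix rat arrays, made with robust multi-array average (RMA, version not stated) per the submitters' processing notes. From these log2 values, 57 control probe sets were left out of 31099. Of the 31042 tested, 20826 have 1 gene symbol in the array's 2016 annotation, 436 several and 9780 none. Array value distributions are closer within an agent than between agents, so levels were compared within agents.

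All 31042 probe sets entered 1 fit with a mean for each of the 15 groups, made with lmFit and eBayes of limma 3.58.1 (R 4.3.3). It had 57 residual and 4.35 prior degrees of freedom. P-values are two-sided and adjusted by Benjamini-Hochberg over all probe sets within each comparison. Probe sets with an adjusted p below 0.05 are called, and the words rose and fell are kept for them. How many of all probe sets had groups without overlap was not counted, so lack of overlap is given only as a description. The script was tested on simulated data. Arrays have no counting depth, and their number limits the precision.

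Genes outside the family were named by rule: up to 3 called members of each list by p at the top dose of an agent, and the 6 probe sets most like Cyp2c7 and Cyp2c6v1. In the lists a gene is its probe set with the highest mean. The Cyp2c members, lists and comparisons were chosen with earlier results of these data known. Promoters are from RefSeq (GRCr8), and 6 of the 7 members matched by symbol. No genome coordinates of the probe sets were used here. Alternatives were all 74 arrays, a replicate block, array weights, a trended robust variance, renewed quantile normalization, a filter on dim probe sets, 1 probe set per gene, only the arrays of the agents compared, each sample left out in turn, and, added after seeing the data, the near-identical arrays of different groups left out.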

Additional observations from a re-analysis of the deposited data

Results flagged for a closer look

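Among 105 combinations of a Cyp2c probe set and a group, 11 had a highest or lowest sample set apart from the others of its group by Dixon's criterion, which chance gives for about 1 in 20 groups. Replicate 2 of DE-71 0.1 mg/kg was high for Cyp2c7 (12.88), Cyp2c11 (9.38) and Cyp2c13 (7.05). Cyp2c7 was high in replicate 5 of PBDE-47 0 mg/kg (10.09, against 8.02 to 8.22 in the other control samples). Cyp2c6v1 was low in replicate 4 of Phenobarbital 5 mg/kg (13.72) and high in replicate 1 of PBDE-47 50 mg/kg (14.03). Cyp2c13 was high in replicate 3 of Phenobarbital 5 mg/kg (5.38), in replicate 5 of PBDE-47 0.1 mg/kg (5.20) and in replicate 2 of DE-71 0 mg/kg (6.06). Cyp2c12 was low in replicate 3 of PCB126 250 mg/kg (12.24, against 12.96 to 13.14), and Cyp2c23 was low in replicate 3 of DE-71 0 mg/kg (11.74, against 12.26 to 12.37).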

How the results depend on the processing

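Of 2502 values compared between the reported fit and an alternative, 347 belonged to called changes, none of which changed sign, and 6 of the 19 called results lost their call in at least 1 alternative. Changes of sign occurred in 119 values that were not called, the largest of them 0.58 in the reported fit. The count of called members at DE-71 50 mg/kg fell from 4 to 2 with only the DE-71 arrays in the fit, where Cyp2c11 (1.82) and Cyp2c13 (2.24) were lost, as was Cyp2c11 at DE-71 15 mg/kg. Between Phenobarbital 5 and 45 mg/kg the count went from 1 to 2 with array weights, which added Cyp2c6v1. With samples left out in turn, the count ranged from 1 to 2 at Phenobarbital 5 mg/kg, from 2 to 3 at PBDE-47 15 mg/kg and from 0 to 1 between Phenobarbital 5 and 45 mg/kg, and was unchanged in the other comparisons of doses and agents. With the replicate block and all 74 arrays, member counts were the same in all comparisons (2 and 3 for Phenobarbital, 3 and 3 for PBDE-47 15 and 50 mg/kg, 3 and 4 for DE-71). Deviations of arrays of the same number had a median correlation of 0.0065 over 102 pairs, 36 above 0.1, with a range of -0.39 to 0.46. Arrays of different numbers were not compared in this way, so whether the numbers pair the samples was not tested. Over all probe sets the calls depended more on the fit: with that block they went from 137 to 358 at PBDE-47 15 mg/kg, from 627 to 1110 at PBDE-47 50 mg/kg and from 173 to 360 at DE-71 15 mg/kg, and without the block but with all 74 arrays to 349, 1106 and 347. Array weights gave 925 in place of 431 at Phenobarbital 45 mg/kg, 532 in place of 111 for its dose step, 1016 at PBDE-47 50 mg/kg, 293 at DE-71 15 mg/kg and 613 in place of 1764 at DE-71 50 mg/kg. Only the agent's own arrays gave 772 at Phenobarbital 45 mg/kg, 46 at DE-71 15 mg/kg and 308 at DE-71 50 mg/kg, and leaving out the near-identical arrays of different groups gave 69 at PBDE-47 15 mg/kg. The causes were not tested. Cyp2c13 lies near the low end of the signal scale, which limits how well its level is measured.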
